A study of Mus musculus with 6 samples.

Results

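The 39 genes described here encode the proteins that pass calcium ions across the plasma membrane and the endoplasmic reticulum. They are 39 of the 55335 genes in the count table. The rule reads the gene symbol and no measured value, though it was drawn up with earlier results of these data known. Every mouse gene named as a pore-forming subunit of a voltage-gated calcium channel (10 genes, Cacna1a to Cacna1i and Cacna1s), an alpha2delta subunit (4, Cacna2d1 to Cacna2d4), a beta subunit (4, Cacnb1 to Cacnb4), a gamma subunit or related protein (8, Cacng1 to Cacng8), a ryanodine receptor (3, Ryr1 to Ryr3), an inositol trisphosphate (IP3) receptor (3, Itpr1 to Itpr3), a calcium pump of the reticulum (3, Atp2a1 to Atp2a3) or a calcium pump of the plasma membrane (4, Atp2b1 to Atp2b4) was taken.

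RNA was sequenced from retina of C57BL/6 mice aged 10 weeks whose genotype is labelled wild type and whose cells are labelled retinal ganglion cells (RGCs), which send the retina's output to the brain through the optic nerve. Lysates were pulled down with an antibody to the HA tag before RNA was extracted, and the labels do not say which protein carried the tag or in which cells it was made. The study compared 3 naive libraries with 3 libraries from eyes with silicone oil-induced ocular hypertension under-detected, shortened to SOHU, a mouse glaucoma model in which oil in the anterior chamber raises eye pressure. The labels place the oil injection 1 week before tissue was taken, in a text that naive samples carry too. They do not say whether a library is 1 animal, 1 retina or a pool, so the p-values below measure only the spread between these libraries, which may be technical.

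Voltage-gated calcium channels open when a neuron depolarizes and let calcium in, which triggers transmitter release at synapses and sets firing patterns. Each channel is built around 1 pore subunit. In many of these channels, though not all, alpha2delta and beta subunits bring the pore to the membrane and tune its gating. Ryanodine and IP3 receptors release calcium from the endoplasmic reticulum, and the pumps return it to the reticulum or move it out of the cell, and in RGCs these flows bear on spiking, axonal transport and the calcium loads known from injured axons.

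Libraries held 21691354 to 26824919 gene-assigned reads. Of 14 RGC marker genes all were detected, and all had every SOHU library below every naive library. Their summed level was 3960 to 6746 CPM (reads scaled to library size) in naive and 1868 to 2706 CPM in SOHU libraries, with a median log2 fold change of -1.12, and 13 passed the test used below as lower. Over all genes tested, 5.93% passed as lower and 8.02% as higher, and 19.7% had every SOHU library below every naive library. Of 12 Müller glia and astrocyte genes 9 passed as higher, and their summed level was 13776 to 18588 CPM in naive and 26368 to 52270 CPM in SOHU libraries. Amacrine and horizontal cell genes (3 of 12 lower) summed to 1825 to 2055 CPM in naive and 1040 to 1388 CPM in SOHU libraries, and vascular genes (3 of 7 tested higher) to 361 to 409 CPM and 747 to 1070.1 CPM. Of 11 tested microglia and leukocyte genes 4 passed as higher, with sums of 10.01 to 212 CPM in naive and 113 to 248 CPM in SOHU libraries. Of 9 bipolar cell genes 0 passed in edgeR (2 had an unadjusted p under 0.05) and 8 had log2 fold changes below 0, with sums of 487 to 675 CPM and 251 to 551 CPM. Rod genes summed to 4572 to 5571 CPM and 4272 to 7051 CPM, and RNA of these cells was in all 6 libraries. In such bulk samples fewer cells of a type and less RNA per cell cannot be told apart. Naive libraries scored -63.3, -23.6 and -35.1 and SOHU libraries 62.5, 49.5 and 9.88 on the first principal component, which held 51.9% of the variance, so SOHU replicate 3 lay closest to the naive libraries.

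Calcium channel and pump genes mostly had negative log2 fold changes, SOHU against naive, and none was below the RGC marker median of -1.12. The marker median was -0.74 for amacrine and horizontal cells, -0.45 for bipolar cells and 1.18 for Müller glia and astrocytes. Of the 39 members 36 had enough reads to be tested. The exceptions were Cacng1 (0 to 5 reads a library), Cacng6 (0 to 4) and Atp2a1 (6 to 10), 3 genes best known from skeletal muscle. With edgeR's quasi-likelihood test and Benjamini-Hochberg adjustment over all 17687 genes tested, 6 members fell, namely Cacnb4, Atp2b2, Cacna1a, Cacna1h, Cacng3 and Cacng5 (16.7% of the 36, beside 5.93% of all genes tested). Itpr2 was the member that rose (2.78%, beside 8.02% of all genes), and the other 29 did not pass an adjusted p of 0.05. At an unadjusted edgeR p under 0.05, 14 members were lower and 2 higher, and 5506 of the 17687 genes had such a p in either direction. The highest SOHU library was under the lowest naive library for 15 members (41.7%, beside 19.7% of all genes) and the lowest SOHU library was over the highest naive library for 4 (11.1%, beside 19.3%). The log2 fold change was below 0 for 28 of the 36, with a median of -0.53 over the members and 0.01 over all genes tested, and ran from -1.06 for Cacna1c to 0.98 for Cacng8. The part of the RGC, amacrine, bipolar, glial, microglial and vascular markers in these values was not tested.

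**Figure D1:**
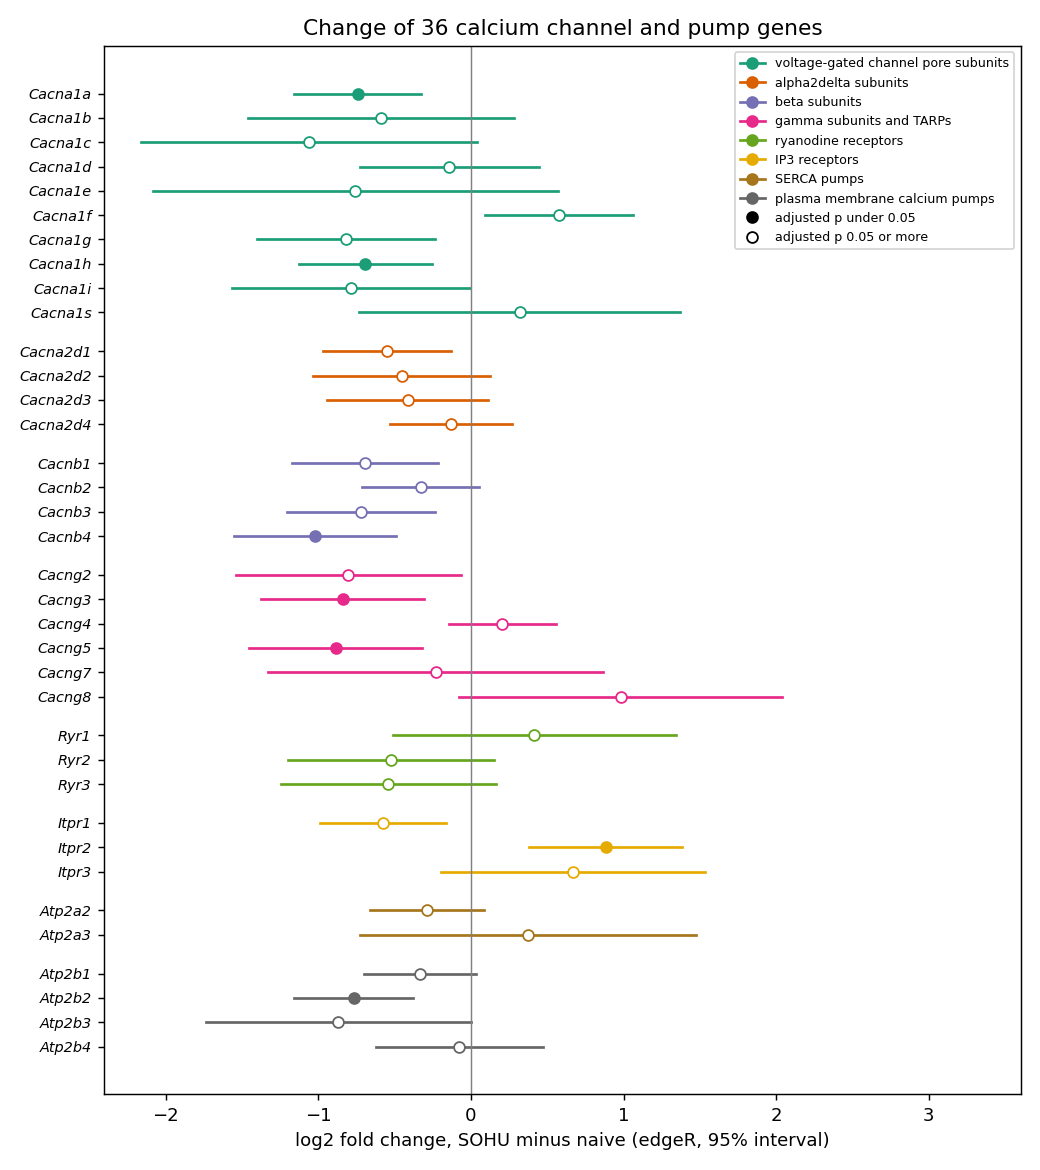
Log2 fold change (SOHU against naive) of the 36 tested members, grouped by class, with 95% confidence intervals from edgeR. Of the members, 28 lie below 0, and filled symbols mark the 7 with an adjusted p under 0.05.

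The SOHU libraries did not contribute alike. SOHU replicate 1 was the lowest of all 6 libraries for 21 of 36 members, and SOHU replicate 3 was the SOHU library nearest the naive mean for 27. The members' median log2 fold change was -0.26 without SOHU replicate 1 and -0.66 without SOHU replicate 3. Without SOHU replicate 3, 15 members passed as lower and 1 as higher, where calls over all genes also became more frequent (10.2% lower and 11.4% higher). For some members that missed with all 6 libraries, an edgeR adjusted p from this setting is given below. None of those members passed in edgeR with any other library left out. Without SOHU replicate 1, 3 passed as lower (Cacna1a, Cacnb4 and Atp2b2) and 0 as higher, beside 4.91% and 6.19% of all genes. Without naive replicate 2, 0 passed as lower in edgeR, with 10 lower at an unadjusted p under 0.05, and 1, Itpr2, passed as higher. Over all genes 1.44% passed as lower and 3.40% as higher in that setting, and 4691 of 18298 had an unadjusted p under 0.05. Without naive replicate 1, naive replicate 3 or SOHU replicate 2, edgeR called 0 members in either direction, while 13, 11 and 11 had an unadjusted p under 0.05 as lower and 1, 3 and 1 as higher. Over all genes edgeR also made 0 calls without naive replicate 1 or naive replicate 3, where 3919 and 4251 genes had an unadjusted p under 0.05. Without SOHU replicate 2 edgeR called 0.254% of all genes lower and 1.60% higher, and 4621 had an unadjusted p under 0.05. DESeq2 on all 6 libraries called 11 members lower and 1 higher, beside 9.90% and 11.4% of all genes. Limma-voom called 7 and 1, beside 6.42% and 7.45%.

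**Figure D2:**
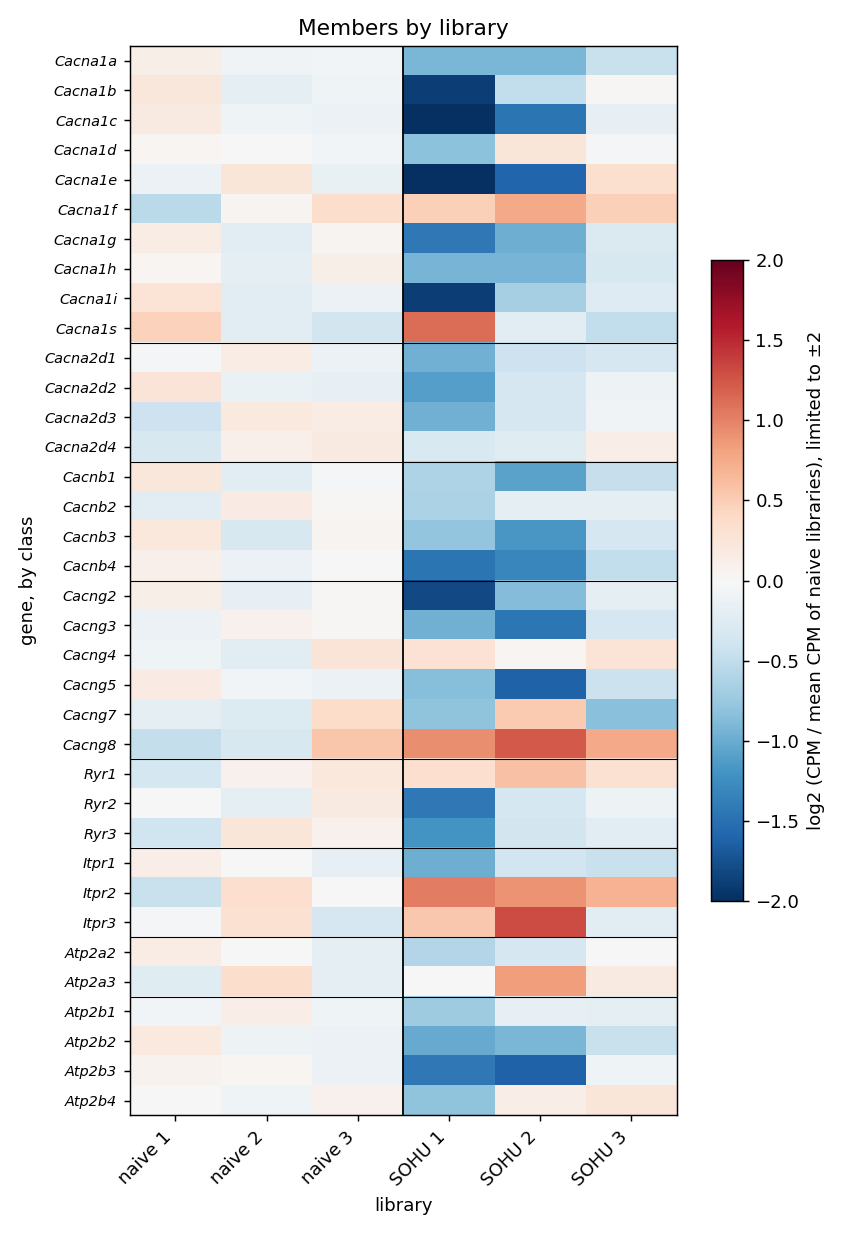
Level of each tested member in each library as the log2 ratio of its CPM to the mean of the 3 naive libraries (colour, limited to 2 either way), with members in rows by class and libraries in columns. SOHU replicate 1 is the lowest library for 21 of 36 members, and SOHU replicate 3 is the SOHU library nearest the naive mean for 27.

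Promoter windows from RefSeq (GRCm38.p6), running from 250 bases before a start site to 50 after it, were found for 29 members, 41 in all. The GC box GGGCGG, searched on both strands, was in 24 of them (58.5%), beside 35.7% of all 32851 windows of the same length. TATAAA was in 1 member window (2.44%, beside 13.6% of all windows). The cAMP response element TGACGTCA and the sequence TTCAGCACC, also searched on both strands, were in 0 of the 41 and in 1.79% and 0.371% of all windows. No motif of these 4 contains another, and the matches describe letters in a window and not bound sites.

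Among the 10 pore subunits, Cacna1a and Cacna1h fell, and Cacna1f stood apart in the other direction without passing the test. The class median log2 fold change was -0.72, and 2 of 10 passed as lower and 0 as higher, beside 5.93% and 8.02% of all genes. DESeq2 and limma-voom each called 3 lower and 0 higher, adding Cacna1g. Over all genes DESeq2 called 9.90% and limma-voom 6.42% as lower. At an unadjusted edgeR p under 0.05 there were 4 lower and 1 higher, beside 5506 of all 17687 genes in either direction. Cacna1a, the P/Q-type pore of presynaptic terminals (chr8:84338639-84640246, mm10), was at 22.5, 19.8 and 20.0 CPM in naive and 11.01, 11.03 and 15.2 CPM in SOHU libraries. The groups did not overlap, with 1.67-fold less in SOHU (-0.74 on the log2 scale, 95% interval -1.16 to -0.33, SE 0.19, edgeR adjusted p = 0.0309). It kept passing without SOHU replicate 1 or SOHU replicate 3 and missed without each other library (edgeR adjusted p 0.0828 to 0.127).

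Cacna1h, a T-type pore that opens at small depolarizations (chr17:25374285-25433783), was at 42.9, 36.7 and 45.4 CPM in naive and 21.9, 21.9 and 33.5 CPM in SOHU libraries. The groups did not overlap, with 1.62-fold less in SOHU (-0.69 on the log2 scale, 95% interval -1.13 to -0.26, SE 0.19, edgeR adjusted p = 0.0442). It passed without SOHU replicate 3 (0.00603) and missed without each other library (0.0703 to 0.147) and with scaling by total counts (0.0649). The other T-type pores had fold changes of the same sign. Cacna1g was at 46.2, 35.4 and 43.0 CPM against 15.5, 21.1 and 34.0 CPM, with no overlap between groups (log2 fold change -0.82, SE 0.26, edgeR adjusted p = 0.0637). It passed without SOHU replicate 3 (0.00509). Cacna1i was at 18.5, 13.2 and 14.1 CPM against 4.15, 9.64 and 12.8 CPM (-0.79, SE 0.35, edgeR adjusted p = 0.158, and 0.0459 without SOHU replicate 3), again with every SOHU library below every naive one.

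Cacna1f encodes the L-type pore of photoreceptor and bipolar cell synapses, and human CACNA1F mutations cause congenital stationary night blindness. It was at 18.2, 27.2 and 33.6 CPM in naive and 36.6, 44.7 and 36.6 CPM in SOHU libraries. All SOHU libraries were above all naive ones, naive replicate 1 being the lowest, but the log2 fold change of 0.58 (SE 0.22, 95% interval 0.09 to 1.06) had an edgeR adjusted p of 0.102. The L-type pore Cacna1c, with 3.58 ± 0.399 CPM (SD, n = 3) in naive and 1.71 ± 1.34 CPM in SOHU libraries, had the most negative log2 fold change of all members, -1.06 (SE 0.49), and an edgeR adjusted p of 0.175 (0.0109 without SOHU replicate 3). SOHU replicate 3 at 3.21 CPM was close to the naive libraries (3.32 to 4.04 CPM), whereas SOHU replicate 1 was at 0.623 CPM. Cacna1d, a further L-type pore, was at 10.6, 10.4 and 9.95 CPM against 5.82, 12.2 and 10.0 CPM, a log2 fold change of -0.14 that was 0.10 without SOHU replicate 1. A neighbouring gene on the other strand, Chdh, shares exon positions with Cacna1d and had 29.7% as many reads over the whole gene, and strand use in counting was not given in the sources used here.

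The N-type pore Cacna1b, which like Cacna1a serves transmitter release, was at 12.1, 9.11 and 9.73 CPM against 2.78, 7.35 and 10.4 CPM (log2 fold change -0.59, edgeR adjusted p = 0.335). The R-type pore Cacna1e was at 2.12, 2.71 and 2.08 CPM against 0.415, 0.762 and 2.89 CPM (-0.76, edgeR adjusted p = 0.422, and 0.0145 without SOHU replicate 3). In both, SOHU replicate 1 was the lowest of 6 libraries and SOHU replicate 3 was inside or above the naive range. Cacna1s, the pore of skeletal muscle, was at 1.14 to 3.49 CPM over the 6 libraries, and its log2 fold change of 0.32 was -0.35 without SOHU replicate 1. The 10 muscle markers summed to 8.92 to 18.9 CPM, with Tnnc2 at 0 reads in all 6 libraries.

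The 4 alpha2delta subunits were lower on average, and 0 passed edgeR's adjusted test, with 1, Cacna2d1, at an unadjusted p under 0.05. DESeq2 called 1 as lower and limma-voom 0, beside 9.90% and 6.42% of all genes, and the class median log2 fold change was -0.43. Cacna2d1, which binds gabapentin and carries channels to terminals, was at 32.8, 37.3 and 31.3 CPM in naive and 17.3, 25.2 and 26.6 CPM in SOHU libraries. Those groups did not overlap (log2 fold change -0.55, SE 0.19, edgeR adjusted p = 0.0761, and 0.046 without SOHU replicate 3). Cacna2d3 was the most abundant of the class at 109 ± 23.6 CPM (SD, n = 3) in naive and 81.6 ± 24.1 CPM in SOHU libraries, with overlapping groups (-0.41, edgeR adjusted p = 0.267). Cacna2d4, the subunit of photoreceptor terminals, was at 72.1 ± 12.9 and 65.9 ± 11.2 CPM (-0.13, edgeR adjusted p = 0.66). Cacna2d2 was at 15.3 to 20.5 CPM in naive and 7.98 to 16.0 CPM in SOHU libraries (-0.45, edgeR adjusted p = 0.267).

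Cacnb4 had the largest fall among the 6 members that passed as lower. This beta subunit, whose loss causes the lethargic mouse phenotype, lies at chr2:52428320-52676831. It was at 78.5, 67.5 and 72.9 CPM in naive and 26.5, 29.4 and 51.9 CPM in SOHU libraries. The highest SOHU library was below the lowest naive one, and the level was 2.03-fold lower (log2 fold change -1.02, SE 0.24, 95% interval -1.55 to -0.49, edgeR adjusted p = 0.0244). It passed without SOHU replicate 1 (0.0392) or SOHU replicate 3 (0.00154), and missed without each other library (0.0622 to 0.104). Cacnb3, the most abundant beta subunit, was at 143, 98.2 and 128 CPM against 71.1, 55.2 and 97.3 CPM. The highest SOHU and lowest naive library nearly met, and the log2 fold change of -0.72 (SE 0.22) had an edgeR adjusted p of 0.0537, with 0.0125 in DESeq2 and 0.0108 without SOHU replicate 3. Cacnb1 was at 18.1, 13.4 and 15.03 CPM against 10.1, 7.40 and 11.3 CPM, without overlap (-0.69, SE 0.21, edgeR adjusted p = 0.059, and 0.0368 without SOHU replicate 3). Cacnb2, which serves photoreceptor synapses, was at 40.1 to 52.8 CPM in naive and 30.1 to 41.2 CPM in SOHU libraries (-0.33, edgeR adjusted p = 0.226). Of the 4 beta subunits 1 passed as lower in edgeR and 3 in DESeq2, beside 5.93% and 9.90% of all genes.

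Most Cacng genes encode transmembrane AMPA receptor regulatory proteins (TARPs), which carry glutamate receptors to synapses and are named after a muscle channel subunit. In this class Cacng3 and Cacng5 fell, while Cacng4 had a small fold change of the other sign. Cacng3 (chr7:122670492-122769393), the most abundant member in naive libraries by RPKM (CPM per kilobase of exon), was at 117, 136 and 130.3 CPM in naive and 65.8, 47.1 and 101 CPM in SOHU libraries. It was 1.79-fold lower (-0.84 on the log2 scale, 95% interval -1.38 to -0.30, SE 0.24, edgeR adjusted p = 0.0458). Cacng5 (chr11:107874605-107915055) was at 93.6, 80.0 and 77.03 CPM against 46.5, 27.3 and 61.8 CPM, with a log2 fold change of -0.89 (SE 0.25, 95% interval -1.45 to -0.32, edgeR adjusted p = 0.0463). For both the groups were separate, SOHU replicate 2 was lowest and SOHU replicate 3 was the highest SOHU library. Both passed without SOHU replicate 3 (edgeR adjusted p 0.00365 for Cacng3 and 0.00875 for Cacng5). Both missed without each other library, at 0.11 to 0.13 for Cacng3 and 0.0811 to 0.161 for Cacng5, and with scaling by total counts, at 0.0617 and 0.0549.

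Cacng2, or stargazin, was at 33.1, 27.1 and 31.0 CPM in naive and 8.68, 16.6 and 26.9 CPM in SOHU libraries. The groups were separated by SOHU replicate 3 lying just under the lowest naive library, and the log2 fold change was -0.80 (SE 0.33, edgeR adjusted p = 0.13, and 0.0121 without SOHU replicate 3). Its opposite-strand neighbour A730060N03Rik shares 323 exon bases with it and had 10.5% as many reads over the whole gene. Cacng4 was at 58.8, 54.2 and 74.6 CPM against 76.8, 64.0 and 75.6 CPM, and these overlapping groups gave a log2 fold change of 0.21 (SE 0.16, edgeR adjusted p = 0.407). Cacng7 and Cacng8 were close to the lowest level that could be tested, at 0.61 to 1.57 and 0.347 to 1.12 CPM. Cacng8 had all SOHU libraries above all naive ones (0.98, SE 0.47, edgeR adjusted p = 0.191). The log2 fold change of Cacng7 was -0.23, and 0.01 without SOHU replicate 3.

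None of the 3 ryanodine receptors passed in edgeR, DESeq2 or limma-voom, and 0 had an unadjusted edgeR p under 0.05. Ryr2, the main type of brain and heart, was at 15.2, 13.5 and 17.4 CPM in naive and 5.69, 11.97 and 14.4 CPM in SOHU libraries, with SOHU replicate 3 inside the naive range (log2 fold change -0.52, SE 0.30, edgeR adjusted p = 0.272). Ryr3 was at 3.35 to 5.20 CPM in naive and 1.91 to 3.74 CPM in SOHU libraries (-0.54, edgeR adjusted p = 0.277). Its exon positions overlap Aven on the other strand, which had 541% as many reads over the whole gene, and reads at the shared positions were not counted separately. Ryr1, the skeletal muscle type, was at 0.539 to 0.796 CPM in naive and 0.854 to 1.03 CPM in SOHU libraries (0.42, edgeR adjusted p = 0.531) and overlaps Gm26604 on the other strand (12.3% as many reads over the whole gene).

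The IP3 receptors differed in sign. Itpr2, a type known from astrocytes and other glia (chr6:146108299-146502223), rose from 6.85, 11.8 and 9.42 CPM in naive to 19.1, 17.4 and 15.2 CPM in SOHU libraries. The groups did not overlap, and the rise was 1.84-fold (0.88 on the log2 scale, 95% interval 0.38 to 1.38, SE 0.22, edgeR adjusted p = 0.0323). It passed without naive replicate 2 (0.0448) or SOHU replicate 3 (0.0217) and missed without each other library (0.0532 to 0.13). Itpr1, the main neuronal type (chr6:108213096-108551109), was at 36.9, 33.9 and 30.0 CPM against 17.2, 25.8 and 24.6 CPM. All SOHU libraries were lower, but the log2 fold change of -0.58 (SE 0.19) had an edgeR adjusted p of 0.0658. Itpr3, a type known from epithelia and taste cells, was at 1.99 to 3.09 CPM in naive and 2.15 to 6.19 CPM in SOHU libraries (0.67, SE 0.39, edgeR adjusted p = 0.27). As a share of the length-adjusted (RPKM) sum over the class, Itpr2 made up 16.9, 26.6 and 25.5% in naive and 49.0, 35.99 and 39.3% in SOHU libraries. Itpr1 went from 73.4, 61.9 and 65.6% to 35.6, 43.1 and 51.5%. Neither share overlapped between groups, which was so for 13 of 39 shares, and both had an exact permutation p of 0.1 (0.3 adjusted over the 39), the smallest that 3 against 3 libraries allow. In the same libraries the median over the Müller glia and astrocyte genes was 1.18 on the log2 scale, and their part in the Itpr2 value was not tested.

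Of the reticulum calcium pumps (SERCA pumps), Atp2a2, the type most cells use, made up nearly all of the class. It was at 221, 199 and 175 CPM in naive and 133, 158 and 199 CPM in SOHU libraries. The groups overlapped, with SOHU replicate 3 level with naive replicate 2 (log2 fold change -0.29, SE 0.17, edgeR adjusted p = 0.279). Atp2a3 was at 0.424 to 0.897 CPM over all 6 libraries (0.37, edgeR adjusted p = 0.646), and the muscle type Atp2a1, not tested, shares exon positions with the far more abundant Rabep2. For both tested pumps 0 calls came from edgeR, DESeq2 or limma-voom, and 0 had an unadjusted edgeR p under 0.05.

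Of the 4 plasma membrane calcium pumps, Atp2b2 fell. It is the fast pump of neurons and hair cells, mutated in the deafwaddler mouse, and lies at chr6:113743831-114042613. It was at 255, 209 and 205 CPM in naive and 111, 118 and 164 CPM in SOHU libraries. A gap separated the groups, and the level was 1.70-fold lower (-0.77 on the log2 scale, 95% interval -1.16 to -0.38, SE 0.17, edgeR adjusted p = 0.0228), the smallest adjusted p of any member. It passed without SOHU replicate 1 (0.0381) or SOHU replicate 3 (0.004) and missed without each other library (0.0586 to 0.107). Atp2b1, the widely expressed pump, was at 305, 347 and 296 CPM against 193, 281 and 278 CPM. Every SOHU library was below every naive one, with a log2 fold change of -0.33 (SE 0.17) and an edgeR adjusted p of 0.201. Atp2b3 was at 5.66, 5.54 and 4.95 CPM against 1.99, 1.75 and 5.08 CPM, so SOHU replicate 3 was within the naive range (-0.87, SE 0.39, edgeR adjusted p = 0.16, and 0.00626 without SOHU replicate 3). Atp2b4 was at 29.3, 27.3 and 30.7 CPM against 16.6, 31.8 and 34.4 CPM, and its log2 fold change of -0.08 was 0.18 without SOHU replicate 1.

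**Figure D3:**
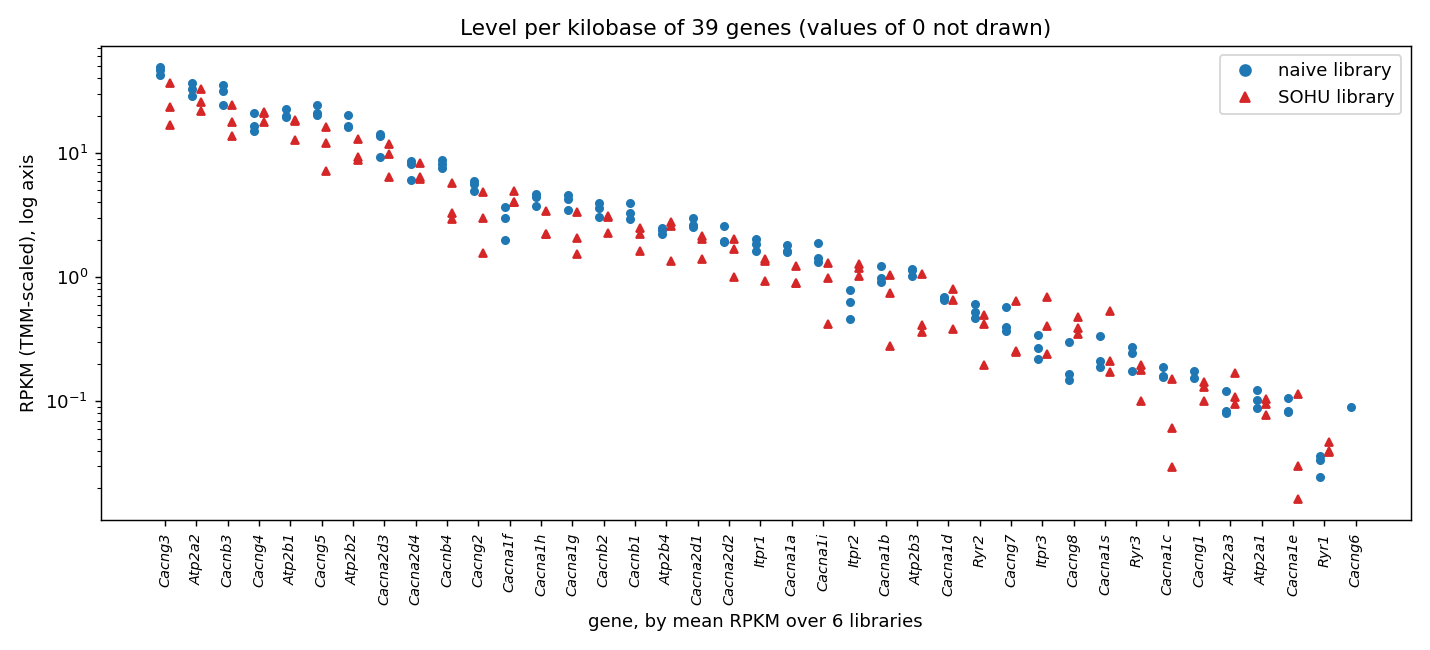
Length-adjusted level (RPKM, log axis) of the members, with circles for naive and triangles for SOHU libraries and genes ordered by mean. Cacng3, Atp2a2 and Cacnb3 are the highest by mean over the 6 libraries, and Ryr1 and Cacng6 the lowest.

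Levels of different genes can be compared only per length. By mean RPKM in naive libraries the order began with Cacng3 (46.0), Atp2a2 (32.7), Cacnb3 (30.7), Cacng5 (21.8), Atp2b1 (20.8), Atp2b2 (17.7) and Cacng4 (17.5). In SOHU libraries it began with Atp2a2 (26.8), Cacng3 (25.7), Cacng4 (20.2), Cacnb3 (18.6), Atp2b1 (16.5), Cacng5 (11.8) and Atp2b2 (10.4), where Atp2a2 (26.8 ± 5.47, SD, n = 3) and Cacng3 (25.7 ± 9.88) differed by less than their spread. Among pore subunits, Cacna1h (4.27 ± 0.456 RPKM) and Cacna1g (4.10 ± 0.544) were the highest in naive libraries, above Cacna1f (2.90 ± 0.848). In SOHU libraries Cacna1f (4.32 ± 0.517 RPKM) was above Cacna1h (2.64 ± 0.687) and Cacna1g (2.32 ± 0.937). Summed over all 39 members the level was 262.8, 251.5 and 257.8 RPKM in naive and 158.3, 161.9 and 226.0 RPKM in SOHU libraries. The naive libraries were thus close to each other, and SOHU replicate 3 stood between them and the other SOHU libraries.

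Within classes, the shares of 13 of the 39 members did not overlap between groups and those of 26 did. No share could pass a test, since the smallest exact permutation p that 3 against 3 libraries allow is 0.1, or 0.3 after Benjamini-Hochberg adjustment over 39 shares, so these values are a description. Examples without overlap follow. Cacna1f made up 11.7, 19.6 and 20.9% of pore subunit RPKM in naive and 38.9, 37.9 and 26.0% in SOHU libraries. Cacna1g went from 26.5, 22.9 and 24.0% to 14.8, 16.1 and 21.7%. Among the Cacng genes, Cacng4 was at 18.3, 16.8 and 22.0% in naive and 36.03, 38.7 and 26.7% in SOHU libraries. Cacng3 was at 47.0, 54.1 and 49.6% in naive and 39.7, 36.6 and 45.9% in SOHU libraries. The share of Atp2b2 among plasma membrane pumps was 46.2, 38.8 and 41.4% in naive and 37.8, 30.4 and 37.0% in SOHU libraries. The other shares without overlap were those of Cacna1a, Cacna1h, Cacnb4, Cacng5, Cacng8, Ryr1, Itpr1 and Itpr2. Shares within a class are tied to each other, so a larger share of 1 member does not show a higher level.

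**Figure D4:**
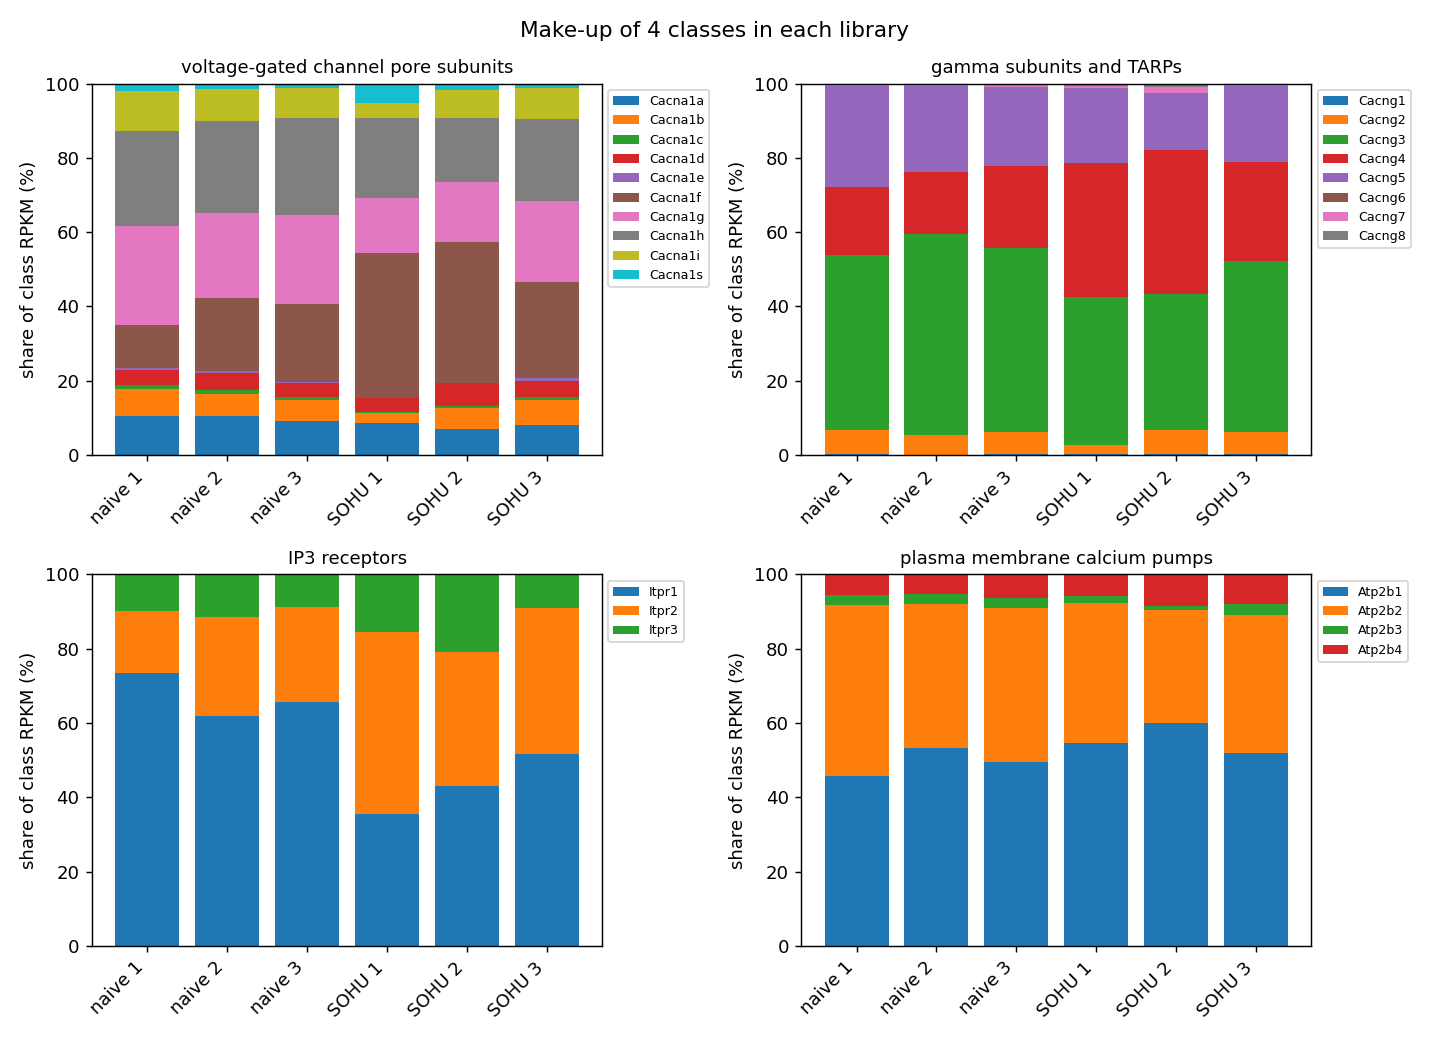
Share of each member in its class's summed RPKM (percent), by library, for the pore subunits, Cacng genes, IP3 receptors and plasma membrane pumps. Cacna1f, Cacng4 and Itpr2 take larger shares in all 3 SOHU libraries than in any naive library.

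Other genes of calcium handling were read in the same fit from 8 lists holding 91 genes, of which 86 were tested. Of these 23 passed as lower (26.7%, beside 5.93% of all genes) and 5 as higher (5.81%, beside 8.02%), with a median log2 fold change of -0.46. Without naive replicate 1 or naive replicate 3 edgeR called 0 of them, as it did over all genes. Without naive replicate 2 it called 6 lower and 3 higher, beside 1.44% and 3.40% of all genes. Without SOHU replicate 2 it called 1 lower and 2 higher, beside 0.254% and 1.60% of all genes. Without SOHU replicate 3 it called 36 lower and 6 higher, beside 10.2% and 11.4% of all genes. Calcium buffers and sensors had the most calls, 8 of 14 lower and 0 higher. The buffer calretinin, Calb2, was at 2157 ± 391 CPM (SD, n = 3) in naive and 877 ± 177 CPM in SOHU libraries (log2 fold change -1.30, edgeR adjusted p = 0.00994). The sensors Hpca (-0.97, edgeR adjusted p = 0.0119) and Hpcal4 (-0.90, 0.0139) and the buffer Calb1 (-0.73, 0.0162), which is an amacrine and horizontal cell marker too, also fell. The calcium-dependent kinase subunits Camk2a (-1.33, edgeR adjusted p = 0.0234) and Camk2b (-0.75, 0.0237) fell too.

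Of 8 sodium-calcium exchangers 3 fell, Slc24a2 (log2 fold change -0.87, edgeR adjusted p = 0.0379), Slc24a3 (-0.61, 0.0433) and Slc8a3 (-0.51, 0.0445). Over all genes tested 5.93% passed as lower and 8.02% as higher. As given above, no gene of the 8 lists passed in edgeR without naive replicate 1 or naive replicate 3. Of the store-operated entry genes, Orai1, the pore opened when the reticulum empties, rose from 20.6 ± 3.24 to 37.0 ± 7.84 CPM (SD, n = 3; log2 fold change 0.84, edgeR adjusted p = 0.024), while Orai2 had a log2 fold change of -0.66 (edgeR adjusted p = 0.0758). In mitochondria, the sodium-calcium exchanger Slc8b1 rose from 12.2 ± 3.25 to 38.5 ± 14.5 CPM (1.65, edgeR adjusted p = 0.0132) and the uniporter gatekeeper Micu2 rose too (0.93, 0.0119). The uniporter pore Mcu fell (-0.51, edgeR adjusted p = 0.047). Among 16 tested reticulum partners, the calsequestrins Casq2 (2.51, edgeR adjusted p = 0.0116) and Casq1 (1.26, 0.0234) rose from 0.418 and 1.79 CPM in naive to 2.41 and 4.29 CPM in SOHU libraries. The junctophilin Jph3 (66.2 ± 6.48 to 33.02 ± 10.9 CPM, SD, n = 3, edgeR adjusted p = 0.0199) and the chaperone Calr (-0.49, 0.0323) fell. Of 8 tested modulators of voltage-gated channels Stac2 fell (-0.67, edgeR adjusted p = 0.0435), and the active zone gene Rims1 was at -1.02 with 0.0595. Of 8 calpains and calpastatin 0 passed in edgeR, 1 in DESeq2 and 0 in limma-voom, with Capn5 at -0.63 (edgeR adjusted p = 0.0537) and Capn1 at -0.62 (0.0891).

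**Figure D5:**
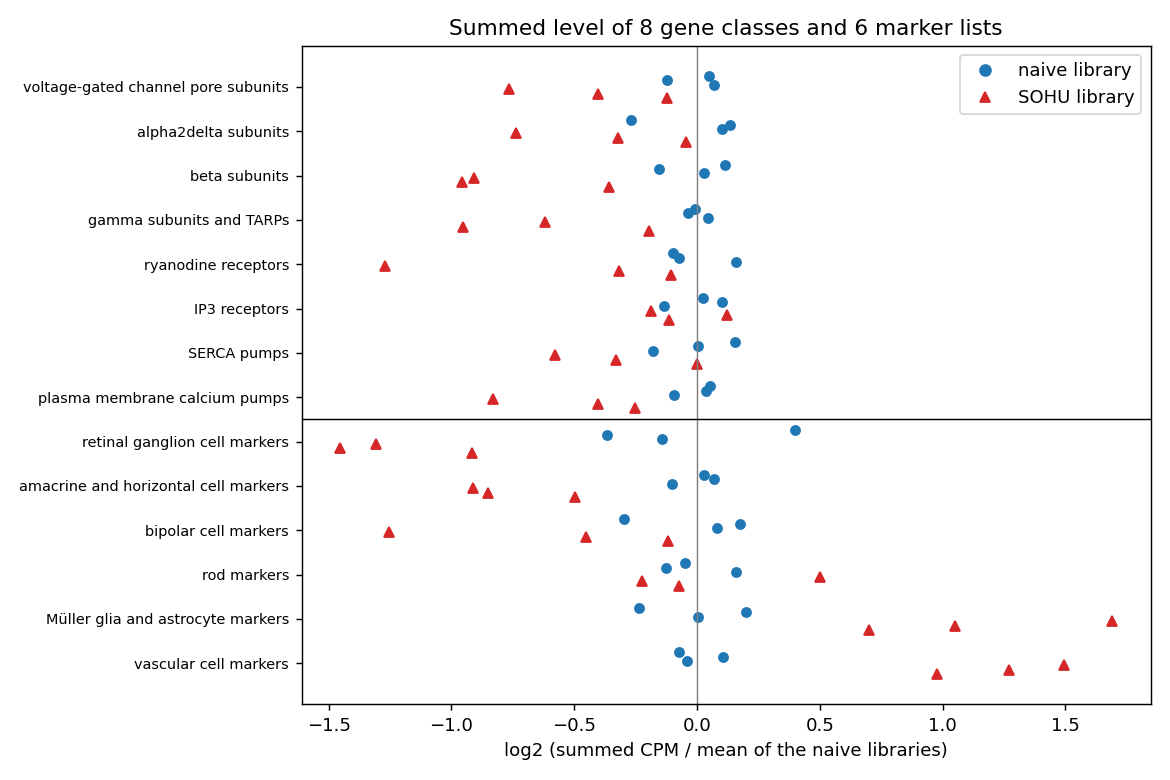
Summed CPM of each member class and of 6 cell type marker lists in each library, as the log2 ratio to the mean of the 3 naive libraries (circles naive, triangles SOHU). The beta, gamma, ryanodine receptor and plasma membrane pump sums are lower in all 3 SOHU than in all 3 naive libraries. For ryanodine receptors the highest SOHU sum (18.98 CPM) nearly meets the lowest naive sum (19.10 CPM). RGC markers and amacrine and horizontal cell markers are also lower in all 3 SOHU libraries. Müller glia and astrocyte markers and vascular markers lie to the right of 0 in all 3 SOHU libraries.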

How the data were processed

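RNA from anti-HA pull-downs of retina was measured as deposited whole-number read counts per gene for 3 naive and 3 SOHU libraries. The submitters' processing notes name featureCounts and build mm10, with HISAT2, HISAT, Trim Galore, MultiQC and bcl2fastq 2.17. Their order and settings, the annotation and the use of strand were not given in the sources used here. The 6 single-library files equal the deposited table. Gene symbols came from the annotation by gene identifier (55154 of 55335 matched).

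Genes with too few reads were removed with edgeR's filterByExpr, libraries were scaled by TMM, and SOHU was compared with naive by edgeR's quasi-likelihood test (R 4.3.3, edgeR 4.0.16), with p-values adjusted over all genes tested. DESeq2 1.42.0, limma-voom (limma 3.58.1), other scalings and filters, a replicate block and leaving out each library were alternatives. CPM and RPKM use TMM library sizes, RPKM with summed exon length. Shares were compared by exact permutation tests. The test script was checked on simulated counts.

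Every member that passed the filter is named. Of each other calcium list up to 4 genes with the smallest p among those passing are named, or the 2 with the smallest p where fewer than 2 passed, except for some items not reported here. Members and lists were chosen with earlier results of these data known. For 5 members an opposite-strand gene with overlapping exons had at least 10% as many reads, both counted over whole genes, and reads at shared positions cannot be told apart without strand. Promoter windows are from RefSeq GRCm38.p6, and Cacna1a and Cacna1h were not among the matches.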

Additional observations from a re-analysis of the deposited data

How the results depend on the processing

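In the report 6 members were lower and 1 higher. Scaling by total counts left 3 lower, no low count filter and DESeq2 each gave 11 lower, and no filter gave 2 higher. Over all genes 5.93% were lower in the report's fit, 4.27% with total counts, 5.24% without a filter and 9.90% in DESeq2. That share was 6.58% with upper quartile scaling and 7.26% with a floor of 1 CPM in 3 libraries. Without a filter 5.27% of all genes were higher, beside 8.02% in the report's fit. Leaving out 1 library gave 0 to 15 lower and 0 to 1 higher, beside 0 to 10.2% and 0 to 11.4% of all genes. Pore subunits, 2 lower, had 1 with total counts and 0 to 6 with a library left out, and 1 higher without a filter. Alpha2delta subunits, 0 lower, had 1 without a filter and in DESeq2, and 0 to 1 with a library left out. Beta subunits, 1 lower, had 3 with upper quartile scaling, no filter and DESeq2, 2 with a floor of 1 CPM in 3 libraries, 2 with the replicate block, and 0 to 3 with a library left out. Gamma subunits and TARPs, 2 lower, had 0 with total counts and 0 to 3 with a library left out. IP3 receptors had 1 lower without a filter and in DESeq2, and 0 to 1 higher with a library left out. Plasma membrane pumps, 1 lower, had 0 to 2. The other calcium lists had 0 to 36 lower and 0 to 6 higher. The log2 fold change changed sign with a library left out for Cacna1d (-0.37 to 0.10), Cacna1s (-0.35 to 0.62), Cacng7 (-0.81 to 0.0147) and Atp2b4 (-0.25 to 0.18). The cause of these shifts was not tested. With the replicate block 7 members were lower and 1 higher, beside 5.04% and 6.66% of all genes. Deviations of same-numbered libraries correlated at 0.163, 0.251 and 0.00399. The same-numbered SOHU library was the best match of naive replicate 1 and naive replicate 2, while naive replicate 3 correlated best with SOHU replicate 2 (0.0946). The labels do not say that the numbers pair the libraries, so the numbers are not taken as pairs. Reads limit what can be seen in Cacng1, Cacng6 and Atp2a1, and in members near 1 CPM.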
